A study of Mus musculus with 15 samples.

Results

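Transcripts of 10 genes, 8 of the Dusp family (Dusp1, Dusp2, Dusp3, Dusp4, Dusp5, Dusp6, Dusp10 and Dusp16) and 2 of the Btg family (Btg1 and Btg2), were followed in macrophages of the mouse dura, the outer membrane around the brain. The genes were taken as a list by name from a table of 53546 gene symbols. All 10 were in that table, and all 10 were among the 14683 genes that passed the filter on low counts. The genes were chosen by family name with results of these same libraries in view, that is, their read counts at the 5 ages, and which comparison led to each gene is not recorded. The differences below therefore describe these libraries, and the adjusted p-values say where each gene stood among all genes, not that the list was tested independently. The study sequenced bulk RNA from sorted CD206-positive cells from embryos (E14.5, embryonic days) and from mice of 4 postnatal ages (P3, P10, P21 and P56, in days). Each age had 3 libraries, which makes 15. All mice were C57BL/6J with the genotype Cx3cr1GFP/wt, so 1 allele of the microglia and macrophage receptor gene Cx3cr1 carried GFP at every age, and the label gives no treatment for any of them. The series text gives 3 to 5 mice per age but not whether a library held the cells of 1 mouse. The p-values therefore weigh age differences against the spread between libraries, which may not be that between mice. The P56 libraries belong to another sequencing project than the other 4 ages, so age and project cannot be told apart at P56.

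MAP kinases (ERK, p38 and JNK) are switched on by phosphate groups on a threonine and a tyrosine. Dual-specificity phosphatases of the Dusp family remove both groups, and because MAP kinase signalling induces several of them, they act as negative feedback. Dusp1, Dusp2, Dusp4 and Dusp5 encode inducible nuclear phosphatases, Dusp6 a cytoplasmic one that prefers ERK, and Dusp10 and Dusp16 ones that prefer p38 and JNK, while Dusp3 encodes a small phosphatase outside this class. In macrophages, Dusp1 is known for limiting p38 and JNK and with them inflammatory cytokine output, and it is induced by glucocorticoids. Btg1 and Btg2 encode small proteins that restrain cell division and bind the CCR4-NOT complex, which shortens the poly(A) tails of mRNAs. Btg2 is an immediate early gene and a target of p53. Dusp1 and Btg2, like other immediate early genes, are also known to be induced when tissue is taken apart into cells.

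Library totals ran from 17550170 to 30614583 counts, with 10 or more counts for 11254 (P21 replicate 2) to 13654 genes. Levels are counts scaled to the library size and by TMM (CPM), a factor that sets the bulk of genes level between libraries. The TMM factors ran from 1.12 to 1.16 at E14.5 and from 0.807 to 0.856 at P56. Without them the median log2 change of all genes was -0.18 for P21 vs P10, -0.13 for P56 vs P21 and -0.32 for P21 vs E14.5, so changes below are relative to that bulk. All 15 macrophage markers, Mrc1 (the CD206 gene) included, were detected in every library, with a sum of 27873 to 49234 CPM of the total count. Sums for several other cell types moved with age. Over 8 mast cell markers they were 2.11 to 126 at E14.5, 636 to 1763 in P3 libraries, 173 to 435 at P10, 4.05 to 10.95 in P21 libraries and 10.2 to 291 at P56. Over 8 fibroblast markers they were 62.4 to 712 at E14.5, 537 to 2497 in P3 libraries, 661 to 2724 at P10, 988 to 1842 in P21 libraries and 82.2 to 138 at P56, and over 9 dendritic cell markers 46.0 to 106 up to P10, 169 to 285 at P21 and 201 to 378 at P56. Among these 9, Siglech, which microglia also express, reached 4817 counts, Cd209a 3017 and Zbtb46 1127, while Flt3, Xcr1, Clec9a, Itgae and Ccr7 held at most 58 counts in any library. Over 7 osteoclast markers the sums were 118 to 549 at E14.5, 829.6 to 1329.7 at P3, 826 to 1718 at P10, 186 to 247 at P21 and 78.8 to 393 at P56. Over 7 erythroid markers they were 2.53 to 7.78 at P56, against 137 to 340.5 at E14.5, and over 10 neutrophil markers up to 216 at P3 and at most 24.9 at the other ages. Over 8 T and NK cell markers, Cd3e included, the sum was 0 to 7.99. Over 7 microglia markers the sums were 914 to 1166 at E14.5, 1197 to 1797 at P3 and 1895 to 2686 at P10. They were 2223 to 2735 at P21 and 1962 to 2220 at P56. Over 6 monocyte markers the sums were at most 74.3 up to P10, 80.6 to 141 at P21 and 53.1 to 461 at P56. Over 7 B cell markers they were 66.9 to 119 in all libraries, and over 7 endothelial markers 1.76 to 17.9. The part of these cells in the levels below was not tested, and in bulk RNA fewer cells that express a gene and less of its RNA per cell cannot be told apart.

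The promoters of 5 members are shown first. Dusp1, Btg2, Btg1 and Dusp5 were the members that passed as higher at P21 than at E14.5 (edgeR adjusted p under 0.05). Dusp2 was added as the one that was lowest at P56. Each sequence runs from 250 bases before to 50 bases after the RefSeq start on GRCm38.p6, in the direction of the gene. Capitals mark TGACG, the core of the cyclic AMP response element (CRE, TGACGTCA), on either strand, the whole CRE where present, and CArG boxes, the sites that serum response factor is known to bind. They lie at chr17:26508423-26508722 on the minus strand for Dusp1, chr1:134079106-134079405 on the minus strand for Btg2, chr10:96616751-96617050 on the plus strand for Btg1, chr19:53528895-53529194 on the plus strand for Dusp5 and chr2:127335909-127336208 on the plus strand for Dusp2.
Dusp1: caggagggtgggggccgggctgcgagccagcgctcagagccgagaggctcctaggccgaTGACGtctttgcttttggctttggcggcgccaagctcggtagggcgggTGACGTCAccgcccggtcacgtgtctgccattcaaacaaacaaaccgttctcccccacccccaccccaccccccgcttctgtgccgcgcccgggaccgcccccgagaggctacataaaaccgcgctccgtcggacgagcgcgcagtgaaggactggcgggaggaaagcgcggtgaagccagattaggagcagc
Btg2: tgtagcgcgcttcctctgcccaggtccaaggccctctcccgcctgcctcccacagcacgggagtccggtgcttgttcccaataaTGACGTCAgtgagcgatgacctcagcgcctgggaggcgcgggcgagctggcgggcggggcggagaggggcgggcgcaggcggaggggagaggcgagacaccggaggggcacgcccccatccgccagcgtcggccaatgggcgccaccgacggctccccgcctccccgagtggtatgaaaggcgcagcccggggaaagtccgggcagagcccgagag
Btg1: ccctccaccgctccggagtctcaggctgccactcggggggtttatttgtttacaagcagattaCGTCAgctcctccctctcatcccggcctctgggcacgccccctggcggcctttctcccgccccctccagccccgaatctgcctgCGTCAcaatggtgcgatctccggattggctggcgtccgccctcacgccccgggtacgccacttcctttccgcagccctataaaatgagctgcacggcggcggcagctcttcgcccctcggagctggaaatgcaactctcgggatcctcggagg
Dusp5: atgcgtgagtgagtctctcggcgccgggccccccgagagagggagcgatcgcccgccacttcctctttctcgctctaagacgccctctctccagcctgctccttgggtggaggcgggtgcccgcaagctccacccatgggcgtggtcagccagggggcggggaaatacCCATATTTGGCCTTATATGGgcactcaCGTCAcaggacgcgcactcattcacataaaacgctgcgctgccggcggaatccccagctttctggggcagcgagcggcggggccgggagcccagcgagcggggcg
Dusp2: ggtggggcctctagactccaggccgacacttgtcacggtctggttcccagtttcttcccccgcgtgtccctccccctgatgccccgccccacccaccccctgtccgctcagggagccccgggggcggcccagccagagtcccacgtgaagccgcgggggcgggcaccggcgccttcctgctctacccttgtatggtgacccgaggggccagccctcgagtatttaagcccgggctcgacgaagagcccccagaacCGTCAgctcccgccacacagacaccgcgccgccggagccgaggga

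RefSeq promoters were matched for 9 of the 10 genes, all but Dusp4. A full CRE was found in 2 of the 9, Dusp1 (position -143 from the start) and Btg2 (position -166), against 1.79% of 32851 mouse promoters of the same length. The core TGACG, which also counts full CREs, was found in 6 of the 9, against 20.8% of promoters. An EGR site (GCGNGGGCG) was found in Dusp2 (position -98), Dusp16 (position -138) and Btg2 (position -131), against 5.55% of promoters. A CArG box was found in Dusp5 alone, as 2 adjoining matches, against 1.63% of promoters. TATAAA was found in Btg1 alone (position -26), against 13.6%, and the AP-1 letters TGANTCA in none of the 9, against 7.81%. Both strands were searched, and these matches are letters in a window, not sites shown to be bound.

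Dusp1, the feedback phosphatase of p38 and JNK, dipped at P3 and was then higher at each later age. It had 1635, 1571 and 1629 CPM at E14.5, 972, 912 and 1008 in P3 libraries, 1897, 2302 and 2302 at P10, 3215, 2954 and 2946 in P21 libraries, and 3868, 4067 and 3522 at P56, in replicate order. Its libraries kept the order P3, E14.5, P10, P21 and P56 with no overlap at any step, and its SD within an age was between 35.6 and 276 CPM. Dusp1 fell to 964 ± 48.3 CPM at P3, against 1612 ± 35.6 at E14.5 (log2 change -0.74 ± 0.10 SE, edgeR adjusted p = 0.00107). It rose at P10, with 2167 ± 234 CPM (1.17 ± 0.10 relative to P3, edgeR adjusted p = 0.000148), and had the smallest p of all 14683 genes in that comparison. It rose again at P21, with 3038 ± 153 CPM (0.49 ± 0.10 relative to P10, edgeR adjusted p = 0.0309). That last call was lost without any 1 of 5 of the 6 libraries (edgeR adjusted p = 0.0717 without P21 replicate 2, 0.15 without P10 replicate 1, 0.0745 without P10 replicate 2, 0.0538 without P10 replicate 3 and 0.0817 without P21 replicate 1), without TMM (0.32, 0.108), with no filter (0.0552) and with only the ages compared (0.153). At P56 it had 3819 ± 276 CPM, a difference from P21 that did not pass (0.33 ± 0.10, edgeR adjusted p = 0.191, DESeq2 0.0397).

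Dusp2, a nuclear phosphatase best known from activated immune cells, had its lowest level at P56, the age of the other sequencing project. It had 522, 418 and 501 CPM at E14.5, 321, 331 and 294 in P3 libraries, 387, 354 and 379 at P10, 493, 356 and 304 in P21 libraries, and 157, 167 and 167 at P56. All 3 P56 libraries lay below the other 12, and all P3 libraries below those of E14.5, while P10, P21 and E14.5 overlapped along the order of their means. Dusp2 fell to 164 ± 5.58 CPM at P56, against 384 ± 97.9 at P21 (-1.23 ± 0.16, edgeR adjusted p = 0.00612), ranking 3 by p among all genes. The call held without each of the 6 libraries in turn (edgeR adjusted p between 0.00499 and 0.0185) but not when only these 2 ages were fitted (0.211). The difference between P3 and E14.5 did not pass (-0.61 ± 0.15, edgeR adjusted p = 0.0618), and passed in DESeq2 (0.00896), in limma voom (0.042), with library totals (0.0345) and with only the ages compared (0.0232). Without P21 replicate 1, the highest of its age, the difference between P21 and E14.5 passed (-0.54, edgeR adjusted p = 0.0193), as it did with library totals (-0.64, 0.00921), against -0.32 and 0.201 in the fit of all libraries with TMM.

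Dusp5, a nuclear phosphatase that acts on ERK, had 41.8, 54.6 and 63.2 CPM at E14.5, 63.7, 55.6 and 61.8 in P3 libraries, 104, 121 and 166 at P10, 207, 135 and 112 in P21 libraries, and 68.4, 92.4 and 139 at P56. The 6 libraries of E14.5 and P3 were all below the 9 of later ages, which overlapped among themselves. Dusp5 rose to 151 ± 49.5 CPM at P21, against 53.2 ± 10.8 at E14.5 (1.51 ± 0.29, edgeR adjusted p = 0.00311), a call kept in all 15 alternatives. The step between P10 and P3 did not pass (1.11 ± 0.28, edgeR adjusted p = 0.14) although no library overlapped, and passed in DESeq2 (0.0117) and with no filter in edgeR (0.0185).

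Dusp4, another nuclear phosphatase, was close to the limit of counting. Its raw counts were 50, 109 and 78 at E14.5, 22, 100 and 4 in P3 libraries, 71, 0 and 36 at P10, 0, 1 and 1 in P21 libraries, and 2, 2 and 118 at P56. The P21 libraries summed to 2 counts, under the floor of 3 counts used here, and single libraries at P3 and P56 carried most counts of their age, so no fold is given. No comparison passed in the fit of all libraries, with an edgeR adjusted p of 0.0906 for P21 vs E14.5. That comparison passed in edgeR with only those ages fitted (0.0237), and DESeq2 passed P21 vs E14.5 (0.00702) and P56 vs P21 (0.0483).

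Dusp6, the cytoplasmic ERK phosphatase, went its own way from Dusp1. It had 241, 211 and 229.8 CPM at E14.5, 321, 269 and 286 in P3 libraries, 207, 198 and 255 at P10, 124, 103 and 252 in P21 libraries, and 389.99, 408 and 237 at P56. P3 libraries lay above all of E14.5 and all of P10, where Dusp1 had its low point. P21 replicate 3 and P56 replicate 6 stood away from the other libraries of the age. Dusp6 passed in none of the 5 comparisons, with a largest difference of 1.11 ± 0.28 between P56 and P21 (345 ± 93.9 against 160 ± 80.8 CPM, edgeR adjusted p = 0.131, DESeq2 0.00515). Without P21 replicate 3, edgeR passed both P56 vs P21 (1.60, adjusted p = 0.00887) and P21 vs E14.5 (-1.003, adjusted p = 0.00818, against -0.51 and 0.272 with all libraries). As a ratio of raw counts, which no scaling changes, Dusp6 per Dusp1 was 0.141 ± 0.00660 at E14.5, 0.303 ± 0.0239 in P3 libraries, 0.102 ± 0.0138 at P10, 0.0530 ± 0.0283 in P21 libraries and 0.0895 ± 0.0192 at P56, with all P3 libraries above those of every other age.

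Of the other phosphatases, Dusp3 had 19.9 to 68.2 CPM over the 15 libraries, Dusp10 2.65 to 18.2 and Dusp16 3.08 to 17.6. Dusp3 averaged 34.5 ± 13.3 CPM at E14.5, 34.0 ± 1.94 in P3 libraries, 42.7 ± 4.17 at P10, 47.4 ± 2.61 in P21 libraries and 57.5 ± 10.3 at P56, and neighbours in the order of the means (P3, E14.5, P10, P21 and P56) overlapped, while P3 and P10 did not. Dusp10 and Dusp16, the phosphatases that prefer p38 and JNK, had means of 5.33 to 11.1 and 9.31 to 14.2 CPM with overlap at each step of their order. None of these 3 genes passed in any of the 5 comparisons, in the main test or in its alternatives.

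**Figure D1:**
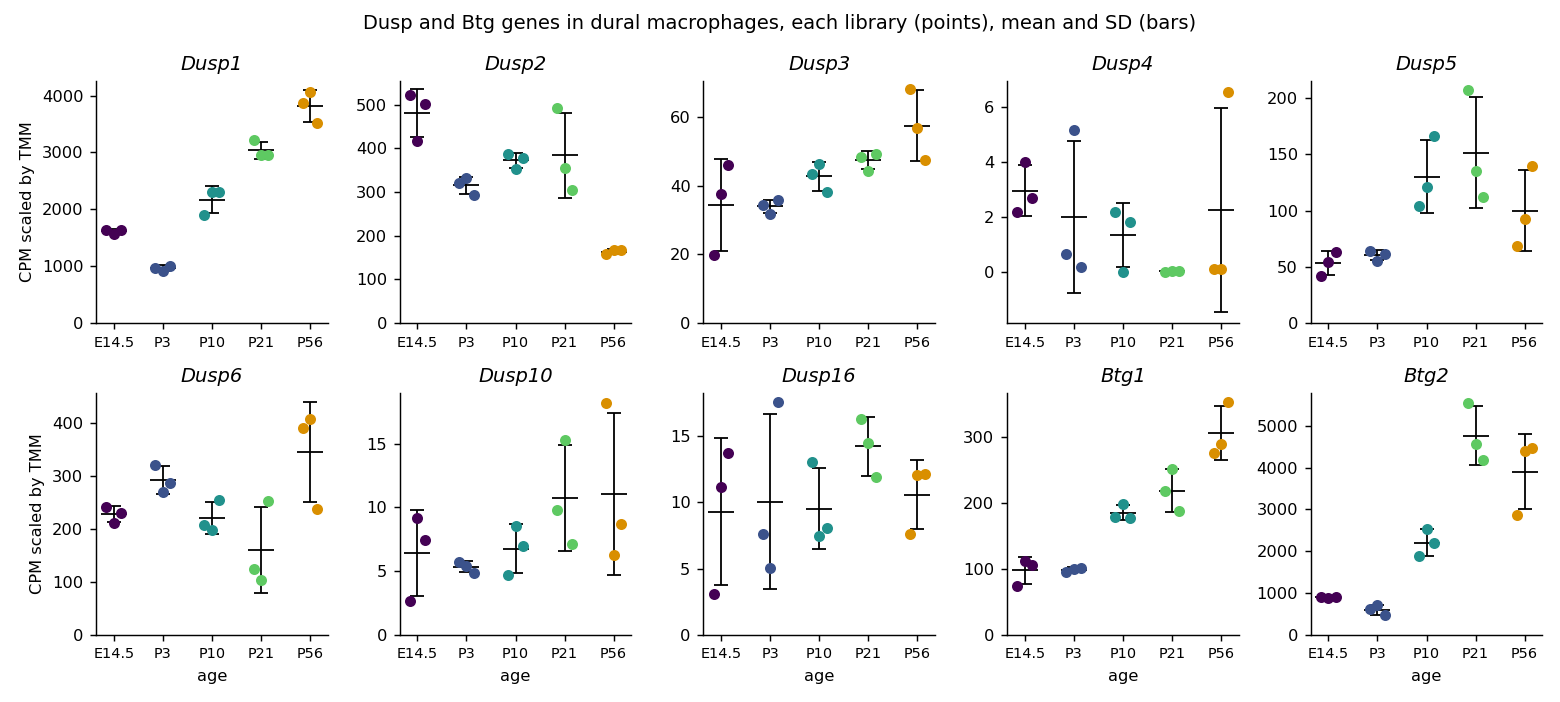
Level of each gene (CPM scaled by TMM, linear axes from 0 except Dusp4, where the SD bars reach below it) by age, 1 point per library, with the mean and SD of 3 libraries as bars. Dusp1 lies between 912 and 4067 CPM with no overlap between ages, Dusp2 is lowest at P56 (157 to 167 CPM), and Dusp3, Dusp4, Dusp10 and Dusp16 overlap between neighbouring levels.

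Btg2 varied more with age than the Dusp genes other than Dusp4. It had 912, 873 and 911 CPM at E14.5, 607, 706 and 478 in P3 libraries, 1880.5, 2542 and 2191 at P10, 5542, 4577 and 4180.1 in P21 libraries, and 2859, 4399.8 and 4460.1 at P56. Libraries of P3, E14.5, P10 and P21 kept that order with no overlap, and those of P56 overlapped with P21. Btg2 rose to 2204 ± 331 CPM at P10, against 597 ± 114 at P3 (1.88 ± 0.19, edgeR adjusted p = 0.000393), and to 4766 ± 700.1 at P21 (1.11 ± 0.18 relative to P10, edgeR adjusted p = 0.0119). Over the span of 1 project, P21 vs E14.5, it rose by 2.41 ± 0.19 on the log2 scale, with 4766 ± 700.1 against 898 ± 22.3 CPM (edgeR adjusted p = 1.93e-06). The call between P21 and P10 was lost without P10 replicate 1 (1.0095, edgeR adjusted p = 0.0864), and held without P21 replicate 2 (0.0317). The difference between P3 and E14.5, 597 ± 114 against 898 ± 22.3 CPM, did not pass (-0.59 ± 0.18, edgeR adjusted p = 0.139), but passed in DESeq2 (0.036) and with only those ages fitted (0.0463).

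Btg1, the close relative of Btg2, was lower per kilobase of exon at every age, with means of 18.5 CPM per kb at E14.5 and 58.0 at P56. It had 74.6, 112 and 106 CPM at E14.5, 94.5, 99.7 and 102 in P3 libraries, 179, 198 and 178 at P10, 218, 251 and 187 in P21 libraries, and 276, 289 and 353 at P56. The libraries of E14.5 and P3 overlapped with each other and were below all later ones, those of P10 and P21 overlapped, and those of P56 were above all others. Btg1 rose to 219 ± 31.9 CPM at P21, against 97.6 ± 20.1 at E14.5 (1.165 ± 0.16, edgeR adjusted p = 0.000333). Its rise at P10, with 185 ± 11.5 CPM against 98.6 ± 3.68 at P3 (0.91 ± 0.16, edgeR adjusted p = 0.029), was lost when any 1 of the 6 libraries was left out (edgeR adjusted p between 0.0772 and 0.168), with log2 changes between 0.85 and 0.93. The difference between P56 and P21, 306 ± 41.4 against 219 ± 31.9 CPM, did not pass (0.48 ± 0.16, edgeR adjusted p = 0.256).

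Btg2 and Dusp1 were both lowest at P3, but Btg2 gained on Dusp1 up to P21. The ratio of Btg2 to Dusp1 counts within a library, free of scaling between libraries, ran from 0.556 to 0.559 at E14.5, 0.474 to 0.774 in P3 libraries, 0.952 to 1.10 at P10, 1.42 to 1.72 in P21 libraries and 0.739 to 1.27 at P56. All P10 libraries exceeded all P3 and E14.5 libraries, and all P21 libraries exceeded every other. Per kilobase of exon (GENCODE M21), Btg2 reached 1738 ± 255 CPM per kb at P21, against 328 ± 8.14 at E14.5, and Dusp1 reached 918 ± 46.2 at P21, against 487 ± 10.7 at E14.5.

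**Figure D2:**
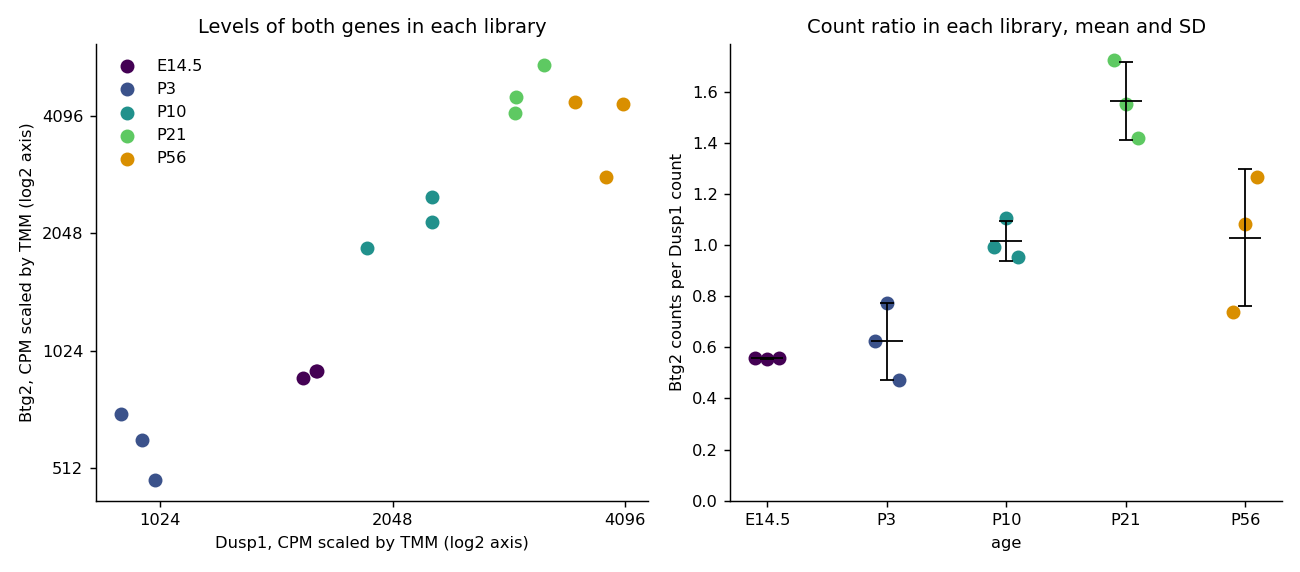
Left, Btg2 against Dusp1 (CPM scaled by TMM, both axes log2), 1 point per library, coloured by age. Right, Btg2 counts per Dusp1 count by age (linear axis from 0), 1 point per library with mean and SD of 3. The ratio is near 0.557 in all E14.5 libraries and 1.42 to 1.72 at P21, above all other ages.

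The counts of members that passed stood as follows, each beside the share of all 14683 tested genes. For P3 vs E14.5, 1 of 10 members passed, lower (Dusp1), against 2.06% of all genes in either direction and 0.388% lower. None passed higher, against 1.67% of all genes, with 0 at an unadjusted p under 0.05 and 0 in DESeq2 and limma voom. The groups did not overlap for 4 members, higher for Dusp6 and lower for Dusp1, Dusp2 and Btg2, against 26.4% of all genes (13.4% higher and 13% lower).

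For P10 vs P3, 3 of 10 members passed, all higher (Dusp1, Btg1 and Btg2), against 0.402% of all genes in either direction and 0.341% higher. None passed lower, against 0.0613% of all genes, with 0 at an unadjusted p under 0.05 and 0 in DESeq2 and limma voom. The groups did not overlap for 7 members, 6 higher (Dusp1, Dusp2, Dusp3, Dusp5, Btg1 and Btg2) and 1 lower (Dusp6), against 19.2% of all genes (9.8% higher and 9.35% lower). For P21 vs P10, 2 of 10 passed, both higher (Dusp1 and Btg2), against 1.14% of all genes in either direction and 0.96% higher, and the same 2 did not overlap, against 17.7% (8.8% higher and 8.92% lower). None passed lower, against 0.184% of all genes, with 1 (Dusp4) at an unadjusted p under 0.05 and 0 in DESeq2 and limma voom.

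For P56 vs P21, 1 of 10 passed, lower (Dusp2), against 0.272% of all genes in either direction and 0.17% lower. None passed higher, against 0.102% of all genes, with 4 at an unadjusted p under 0.05, 3 in DESeq2 and 0 in limma voom. The groups did not overlap for 4 members, higher for Dusp1, Dusp4 and Btg1 and lower for Dusp2, against 13% of all genes (6.76% higher and 6.22% lower). For Dusp4 the gap lay between counts of 1 at P21 and 2 at P56, under the floor of 3 counts. For P21 vs E14.5, 4 of 10 passed, all higher (Dusp1, Dusp5, Btg1 and Btg2), against 12.2% of all genes in either direction and 7.81% higher. None passed lower, against 4.37% of all genes, with 1 at an unadjusted p under 0.05, 1 in DESeq2 and 0 in limma voom. The groups did not overlap for these 4 and, lower, for Dusp4, against 33.4% of all genes (16.1% higher and 17.4% lower). These shares of members are read as a description, since the list was drawn up with such results known.

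Median log2 changes over the 10 members were -0.14, 0.33, 0.23, 0.16 and 0.68 in the 5 comparisons in the order given, beside medians over all genes of 0.01, 0.01, -0.01, 0.00 and -0.01. In the test of any difference among E14.5, P3, P10 and P21, the ages of 1 project, the same 4 members passed, against 12.3% of 14287 genes. Their highest and lowest age means lay 7.88-fold apart for Btg2 (edgeR adjusted p = 1.02e-06), 3.11-fold for Dusp1 (2.6e-06), 2.83-fold for Dusp5 (0.00321) and 2.23-fold for Btg1 (0.000806). Dusp2 and Dusp6 did not pass it (edgeR adjusted p = 0.117 and 0.166), but Dusp2 did without P21 replicate 1 (0.0197) or P21 replicate 3 (0.0497), with library totals (0.0245) and in DESeq2 (0.024). Dusp6 passed it without P21 replicate 3 (0.00149), in DESeq2 (0.048) and in limma voom (0.0409).

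**Figure D3:**
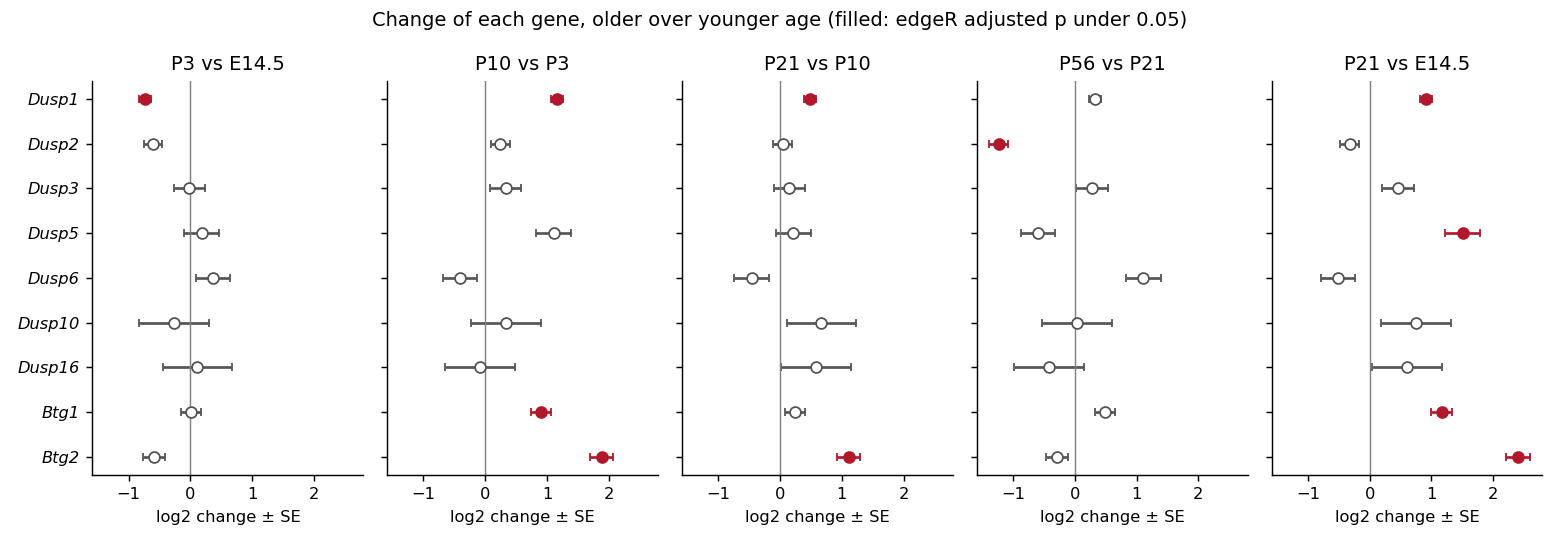
Log2 change (older over younger age) with its SE from the edgeR fit of 15 libraries, for 9 of the 10 genes in 5 comparisons. Filled red points have an adjusted p under 0.05 and open points do not. Dusp4 is not drawn because its P21 libraries held at most 1 count each. Dusp1 and Btg2 lie right of 0 in P10 vs P3 and P21 vs P10, and Dusp2 lies at -1.23 in P56 vs P21.

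The make-up of the Dusp message by gene differed between ages. Dusp1 made up 58.5 ± 1.56% of the summed CPM per kilobase of the 8 Dusp genes at E14.5, 50.4 ± 1.86% in P3 libraries, 66.9 ± 2.60% at P10, 74.3 ± 2.37% in P21 libraries and 82.2 ± 0.0830% at P56. Dusp2 made up 28.8 ± 2.02%, 27.3 ± 2.09%, 19.2 ± 2.25%, 15.4 ± 2.67% and 5.84 ± 0.502% at the same ages. Dusp1 shares did not overlap between any pair of ages, and Dusp2 shares at P56 were all below those of the other ages. Dusp6 had its largest share at P3, 16.1 ± 1.02%, against 8.72 ± 0.258% at E14.5, and its share was 4.18 ± 2.28% at P21. Dusp5 made up 2.59% to 5.355% on average, and Dusp3, Dusp4, Dusp10 and Dusp16 each 1.26% or less. These shares rest on the same counts as the levels above and are free of the TMM factors.

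**Figure D4:**
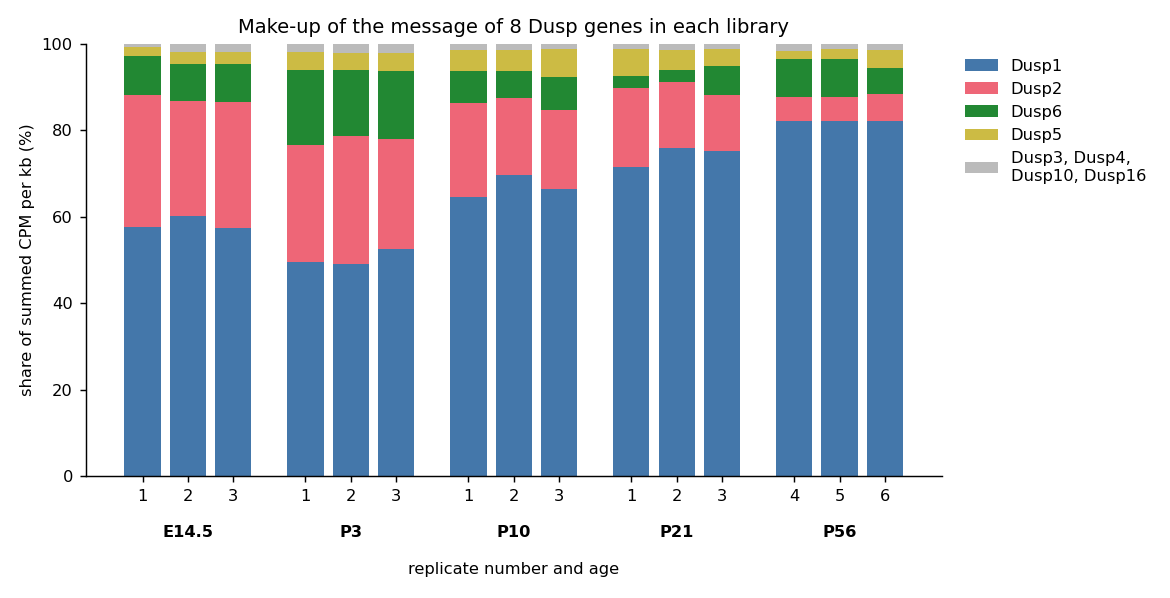
Share (%) of each Dusp gene in the summed CPM per kilobase of the 8 Dusp genes, 1 stacked bar per library in age order. The Dusp1 share (blue) is smallest at P3, at 50.4% on average, and largest at P56, at 82.2%, while that of Dusp2 (red) is 5.84% at P56, against 28.8% at E14.5.

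The genes whose levels ran most like each member were ranked by Pearson's r of log2 CPM over the 15 libraries, among 6432 genes with a mean of at least 20 CPM. The libraries share age and project, so r mainly follows the differences between ages and is given without a test. Btg2 ran most like Slc25a33 (0.98), Atf3 (0.97) and Cd83 (0.96), and Dusp1 most like Atf3 (0.94), Ighm (0.93) and Fcrls (0.93), so the stress-induced transcription factor gene Atf3 stood near both. Btg1 ran most like Cxcl16 (0.96), Bcl2a1b (0.96) and Itgam (0.95), and Dusp5 most like Pim3 (0.92), Mt1 (0.90) and Rrbp1 (0.90). Dusp2 ran most like Aars (0.91), Scaf11 (0.89) and Ckb (0.89), and Dusp6 most like Cln8 (0.89), Ccdc97 (0.85) and Slc39a9 (0.85). For Dusp3, Dusp4, Dusp10 and Dusp16 the closest genes were Mbd2 (0.86), Xpot (0.81), Ptges3 (0.83) and Grb2 (0.76). Between members, r was 0.94 for Dusp1 with Btg2, 0.90 for Btg1 with Btg2 and 0.89 for Dusp1 with Btg1. Once each age's mean was taken away, r was 0.15, 0.26 and -0.17 for these 3 pairs.

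Relatives of the members outside the list were read from the same fit. Counts of passed genes for these and the lists below stand beside the shares of all 14683 genes that passed. In either direction these shares were 2.06% in P3 vs E14.5, 0.402% in P10 vs P3 and 1.14% in P21 vs P10. For P56 vs P21 the share was 0.272%, and for P21 vs E14.5 12.2% (7.81% higher and 4.37% lower). Of the other MAP kinase phosphatase genes (Dusp7, Dusp8 and Dusp9, all tested), Dusp7, a cytoplasmic ERK phosphatase like Dusp6, fell to 30.3 ± 9.67 CPM at P21, against 94.8 ± 36.2 at E14.5 (-1.65 ± 0.38, edgeR adjusted p = 0.0115). The Dusp7 call did not hold without E14.5 replicate 3 (0.0569) or P21 replicate 1 (0.0535). Of 15 atypical dual-specificity phosphatase genes, 10 were tested, and only Dusp27 passed in P21 vs E14.5, with 0.0489 ± 0.0847 CPM at P21 against 15.3 ± 2.81 at E14.5. The Dusp27 call was lost without any 1 of the E14.5 libraries or of P21 replicates 2 and 3 (edgeR adjusted p between 0.0516 and 0.0812), and P21 was near 0 counts, so no fold is given. Of the other BTG and TOB genes, 3 of 4 were tested, and Tob2, which also binds the CCR4-NOT complex, rose to 249.8 ± 12.5 CPM at P21, against 85.1 ± 15.04 at E14.5 (1.55 ± 0.33, edgeR adjusted p = 0.00665). In the 4 comparisons of neighbouring ages no gene of these 3 lists passed in edgeR, where 2, 0, 3 and 4 genes had an unadjusted p under 0.05 DESeq2 passed 1, 0, 0 and 1, and limma voom passed 0.

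Of the 11 CCR4-NOT genes, the partners of the BTG proteins, 3 passed in P21 vs E14.5, against 12.2% of all genes. Cnot9 fell to 44.9 ± 9.85 CPM at P21, against 102 ± 11.2 at E14.5 (-1.19 ± 0.23, edgeR adjusted p = 0.00321), and Cnot1, the scaffold of the complex, to 23.5 ± 9.24, against 62.0 ± 13.1 (-1.40 ± 0.34, 0.0153). Cnot8, a deadenylase subunit, rose to 145 ± 18.03 CPM at P21, against 104 ± 4.83 at E14.5 (0.485 ± 0.13, edgeR adjusted p = 0.0272), a call kept in 6 of 15 alternatives. It was lost without TMM (0.17, 0.402), with no filter (0.118), with only the ages compared (0.0995), with the replicate block (0.0512) and without any 1 of E14.5 replicates 1 to 3 and P21 replicates 1 and 2 (0.0554 to 0.106). The Cnot1 call was lost without E14.5 replicate 2 or 3 or P21 replicate 1 or 2 (0.0537 to 0.0641). Of 23 MAP kinase and upstream kinase genes, the substrates of the Dusp phosphatases and the kinases above them, 21 were tested. In P21 vs E14.5, 1 of the 21 passed, lower, against 12.2% of all genes in either direction and 4.37% lower. Map2k4, a kinase above JNK, fell to 54.6 ± 15.5 CPM at P21, against 98.9 ± 3.35 at E14.5 (-0.86 ± 0.22, edgeR adjusted p = 0.0214), a call lost without any 1 of the E14.5 libraries or P21 replicate 1 (0.0577 to 0.0756), or with only the ages compared (0.0573). No gene of either list passed in edgeR between neighbouring ages, against 2.06%, 0.402%, 1.14% and 0.272% of all genes. There 2, 0, 3 and 4 genes had an unadjusted p under 0.05, DESeq2 passed 0, 0, 2 and 1, and limma voom passed 0.

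Among 10 tested genes of other ERK feedback regulators, 1 rose in P3 vs E14.5 (Ier3), 1 rose in P21 vs P10 (Errfi1), and 2 rose (Errfi1 and Ier3) and 1 fell (Spred1) in P21 vs E14.5. Of all genes, 1.67%, 0.96% and 7.81% rose in these comparisons, and 4.37% fell in the last. Errfi1, an inhibitor of EGF receptors, rose to 248 ± 44.7 CPM at P21, against 70.3 ± 11.6 at P10 (1.82 ± 0.24, edgeR adjusted p = 0.00299). Spred1, an inhibitor of Ras signalling, fell to 91.3 ± 28.8 CPM at P21, against 186 ± 20.3 at E14.5 (-1.02 ± 0.27, edgeR adjusted p = 0.0209), a call lost without E14.5 replicate 2 or 3 or P21 replicate 1 or 2 (0.0596 to 0.086). None of the 10 passed in P10 vs P3 (3 at an unadjusted p under 0.05, 3 in DESeq2 and 0 in limma voom) or in P56 vs P21 (2, 1 and 0). The shares of all genes there were 0.402% and 0.272%.

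The 22 immediate early genes held calls in both directions. Ier3, named above among the ERK feedback genes, is on this list too, so its rises are counted in both. In P3 vs E14.5, 2 rose and 4 fell, in P10 vs P3 5 rose, in P21 vs P10 2 rose, and in P21 vs E14.5 12 rose and 2 fell, with medians of 0.04, 0.74, 0.23 and 0.85 on the log2 scale. Among all genes, 1.67%, 0.341%, 0.96% and 7.81% rose in these comparisons, while 0.388% fell in the first and 4.37% in the last. Egr1, the transcription factor gene of the EGR sites above, fell to 1249 ± 169 CPM at P3, against 5054 ± 219 at E14.5 (-2.02 ± 0.17, edgeR adjusted p = 2.5e-05). Fos, a subunit of AP-1, rose to 4301 ± 384 CPM at P10, against 2128 ± 141 at P3 (1.02 ± 0.14, edgeR adjusted p = 0.0055), as did Atf3, with 999.6 ± 61.9 against 279.8 ± 51.8 CPM (1.84 ± 0.27, 0.00695, and 0.0646 without P3 replicate 3). Klf6 rose to 2063 ± 222 CPM at P21, against 1155 ± 178 at P10 (0.84 ± 0.12, edgeR adjusted p = 0.00342, and 0.0705 with only the ages compared). None passed in P56 vs P21, against 0.272% of all genes, with 4 at an unadjusted p under 0.05, 1 in DESeq2 and 0 in limma voom.

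Of 10 heat shock genes, 2 rose in P21 vs P10 (Hspa1a and Hspa1b) and 1 fell in P21 vs E14.5 (Hspd1). Among all genes, 0.96% rose in the first comparison and 4.37% fell in the second. Hspa1a had 96.2 ± 70.7 CPM at P21 and 14.04 ± 3.96 at P10 (2.77 ± 0.55, edgeR adjusted p = 0.0317), a call lost without any 1 of the P10 libraries or P21 replicate 2 (0.0917 to 0.14), with no filter (0.0982), with only the ages compared (0.0846) and in limma voom (0.125), which passed 0 of the 10 genes in that comparison. In P3 vs E14.5, P10 vs P3 and P56 vs P21 none passed, with 5, 0 and 0 at an unadjusted p under 0.05 and 2, 0 and 0 in DESeq2 and 1, 0 and 0 in limma voom. The shares of all genes in these comparisons were 2.06%, 0.402% and 0.272%. Of 13 glucocorticoid response genes, 1 rose in P3 vs E14.5 (Cd163), 4 rose in P21 vs P10 and 9 rose in P21 vs E14.5. The shares of all genes that rose were 1.67%, 0.96% and 7.81%. Errfi1, named above among the ERK feedback genes, is also on this list, so its rises are counted in both. Tsc22d3, a direct glucocorticoid target, rose to 1713 ± 514 CPM at P21, against 226 ± 40.9 at P10 (2.92 ± 0.26, edgeR adjusted p = 0.000149). None of the 13 passed in P10 vs P3 or in P56 vs P21, against 0.402% and 0.272% of all genes. In P10 vs P3, 4 were higher and 1 lower at an unadjusted p under 0.05, with 3 higher in DESeq2 and 1 in limma voom. For P56 vs P21 the counts were 2 at an unadjusted p under 0.05, 2 in DESeq2 and 1 in limma voom. The part of either programme, and of cell isolation, in the levels of Dusp1 and Btg2 was not tested.

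Of 15 p53 target genes 14 were tested, with 1 rise in P3 vs E14.5 (Gdf15), 1 in P21 vs P10 (Plk3), and 3 rises and 1 fall in P21 vs E14.5. The shares of all genes were 1.67%, 0.96% and 7.81% for the rises and 4.37% for the fall. None passed in P10 vs P3 (2 at an unadjusted p under 0.05, 0 in DESeq2 and limma voom) or in P56 vs P21 (4, 3 and 0), where 0.402% and 0.272% of all genes did. The 20 cell cycle genes, set beside the antiproliferative Btg genes, had 2, 1, 1 and 3 falls in the 4 comparisons of neighbouring ages and 19 falls in P21 vs E14.5, with no rise called in any (0 at an unadjusted p under 0.05, in DESeq2 and in limma voom). Among all genes, 0.388%, 0.0613%, 0.184%, 0.17% and 4.37% fell in these comparisons. Mcm5, a subunit of the replicative helicase, fell to 92.3 ± 18.6 CPM at P21, against 357 ± 12.9 at E14.5 (-1.95 ± 0.17, edgeR adjusted p = 4.59e-06). Cell cycle medians were -0.76, -0.70, -0.56, -1.01 and -2.01 in the 5 comparisons. Btg2 was lower at P3 than at E14.5 in every library, a difference that did not pass (edgeR adjusted p = 0.139). It was higher in P10 vs P3, P21 vs P10 and P21 vs E14.5. Any relation between Btg2 and the cell cycle genes was not tested.

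The counting rule for overlapping genes and the strand setting are not given in the sources used here. In GENCODE M21 the exons of Dusp1 share 11 bases with Ergic1 on the other strand, those of Dusp3 share 604 bases with the antisense gene Gm20659, which had 0 counts in every library, and those of Dusp5 share 547 bases with an antisense gene not matched by symbol in the table. The similar Btg1b and Btg1c rows held at most 0 and 2 counts per library. Without the counting rule, these low counts cannot show whether reads shared with those genes were left out of Btg1.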

How the data were processed

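Bulk RNA-seq of sorted CD206-positive dural cells gave 15 libraries, 3 at each of 5 ages. The deposited values were raw counts per gene symbol. Per the labels' protocols, cDNA was made with SMARTer v4 and libraries with Nextera XT. The tools listed by the submitters' processing notes are featureCounts 2.0.2, STAR 2.7.8a and bcl2fastq 2.18. Genome build, annotation, strand setting and molecular identifiers are not given in the sources used here.

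Counts were scaled by TMM, filtered with filterByExpr by age and tested in edgeR 4.0.16 (R 4.3.3) with robust quasi-likelihood F-tests, all 15 libraries in 1 fit with age as the only term. Pairs of ages compare older over younger. Calls were made at a Benjamini-Hochberg adjusted p under 0.05, over all tested genes. Any difference among 4 ages was tested in the 12 libraries of 1 project. Log2 CPM used a prior count of 2. Each SD is over the 3 libraries of an age and each SE comes from the edgeR fit, so both include the spread between libraries. The floor of 3 counts covers counting error only. The test was tried on simulated counts whose spread came from the same fit, with changes set only in genes of higher counts. That trial does not cover low counts such as those of Dusp4, Dusp10 and Dusp16. Alternatives were RLE scaling, library totals, no filter, a filter of 5 CPM in 3 libraries, other sets of libraries, a replicate block, DESeq2 1.42.0, limma 3.58.1 voom and leaving out each library.

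The members and the 11 pathway lists were chosen with earlier results of these data known. From each list, called genes with the smallest p are named, at most 3 per comparison. Of each member, 3 genes of like pattern were ranked, leaving out predicted, ribosomal protein and mitochondrial genes and pseudogenes. Exon lengths came from GENCODE M21, and promoters from RefSeq GRCm38.p6. No count column was left out.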

Additional observations from a re-analysis of the deposited data

How the results depend on the processing

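The number of members that passed moved with the setting in every comparison, and by more than 1.5 times in 3. For P3 vs E14.5 it was 2 with library totals, 3 with only the ages compared, 3 in DESeq2 and 2 in limma voom, against 1 in the main test. For P21 vs P10 it was 1 with library totals, 1 with no filter, 1 with only the ages compared, and 0 to 2 when a library was left out, against 2. For P56 vs P21 it was 0 with only the ages compared, 4 in DESeq2, and 1 to 2 when a library was left out, against 1. The cause of these moves was not tested. For P10 vs P3 it was 4 with no filter and in DESeq2, and 2 when any library was left out, against 3. For P21 vs E14.5 it was 5 with library totals, with only the ages compared and in DESeq2, and 4 to 5 when a library was left out, against 4. For any difference it was 5 with library totals and in limma voom, 6 in DESeq2, and 4 to 6 when a library was left out, against 4, and leaving out a library gave 1 for P3 vs E14.5. With the replicate number as a block the counts were 1, 3, 2 and 4 for P3 vs E14.5, then P10 vs P3, P21 vs P10 and last P21 vs E14.5, and 4 for any difference, so no count moved. None of 18 same-numbered pairs of libraries deviated together (r between -0.06 and 0.06), so the numbers were not taken as pairs, and P56 carries other numbers. Of the single values tried, 723 kept their side of the threshold, 54 lost it and 24 gained it. None of the log2 changes among them turned direction. Members entered these values only where a setting passed or the ages did not overlap, so the lack of turns is partly set by that selection. The values for any difference have no direction. A further 25 pairs of member and comparison, where the ages overlap and no setting passed, were kept out with all their settings. In 10 of these pairs the sign changed, over 30 settings in all. The low counts of Dusp4, under the floor of 3 over the P21 libraries, limit its values.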
